A study of Mus musculus with 18 samples.

Results

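The 50 genes described here encode proteins that drive a cell through mitosis, chosen by symbol, and all 50 of the 50 were among the 21441 genes of each deposited table. In RAW264.7 macrophages all 50 had a mean FPKM (fragments per kilobase of transcript, scaled to library size) above 1 over the libraries and were tested among 9905 such genes. In mouse liver 10 of the 50 did, among 10147 genes. RAW264.7 cells are a mouse line with macrophage character, lipopolysaccharide (LPS) comes from the wall of Gram-negative bacteria and activates macrophages, and moringa isothiocyanate-1 (MIC-1) is the main isothiocyanate of moringa seeds. Each table holds 3 control, 3 LPS and 3 LPS+MIC-1 libraries of total RNA. The liver libraries came from wild type C57BL/6 male mice, 6 per group in the study with 3 libraries per group sequenced. Mice were gavaged for 3 days with 80 mg/kg MIC-1 in 10% DMSO (LPS+MIC-1 mice) or, per the study, with vehicle, and were then injected intraperitoneally with 10 mg/kg LPS (LPS and LPS+MIC-1 mice) or saline (control mice), and the livers were taken after 16 h. Their age is not given in the sources used here. For the cultures the labels repeat the strain and the doses of the mice, whereas the design text of the series gives 10 µM MIC-1, and the LPS concentration of the sequenced cultures is not given in the sources used here. Neither the labels nor the study state whether the culture libraries are separate cultures, so p-values measure the spread between these libraries, which may be technical.

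Mitosis begins when the kinase Cdk1, bound to cyclin A or cyclin B and freed of its inhibitory phosphates by Cdc25 phosphatases, phosphorylates chromosome, spindle and nuclear envelope proteins. Condensins compact the chromosomes, kinesins build the spindle, and the spindle assembly checkpoint holds back the ubiquitin ligase APC/C until every kinetochore is attached. The APC/C, with Cdc20, then marks securin and cyclin B for destruction, the sister chromatids separate, and the central spindle directs cytokinesis. The mRNAs of most of these proteins peak in G2 and M phase and are held low in resting cells by the DREAM complex, which binds a short promoter element called the CHR (TTTGAA, or the variant TTCGAA). Boxes reading CCAAT, bound by NF-Y, often lie upstream of it. RAW264.7 cells divide in culture, while most hepatocytes of an adult liver are at rest.

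Promoter windows from RefSeq (build GRCm38.p6, 250 bases before to 50 after each gene's start) were matched for 43 of the 50 genes, in 46 windows. TTTGAA, on either strand, was in 71.7% of the 46 windows and in 17.9% of all 32851 windows of the same length. TTCGAA, which reads the same on both strands and is never counted at the same position as TTTGAA, was in 13.0% against 1.56%, and CCAAT on either strand in 80.4% against 37.4%. TTTGAA and CCAAT together were in 65.2% against 6.95%. These are matches of letters and no evidence that a factor binds there. The 150 bases from 100 before to 50 after the start are shown for the mitotic kinases, cyclins and APC/C activator that results below turn on, for Bub1, and for Cdc25b and Psrc1, which moved against the rest with LPS. Capitals mark these letters, and CCAAT on the other strand is read as ATTGG.
Plk1, chr7:122159335-122159484, plus strand: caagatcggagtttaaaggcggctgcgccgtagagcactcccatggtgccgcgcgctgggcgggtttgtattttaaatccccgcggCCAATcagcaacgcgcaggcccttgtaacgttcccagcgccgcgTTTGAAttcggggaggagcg
Cdc20, chr4:118437294-118437443, minus strand: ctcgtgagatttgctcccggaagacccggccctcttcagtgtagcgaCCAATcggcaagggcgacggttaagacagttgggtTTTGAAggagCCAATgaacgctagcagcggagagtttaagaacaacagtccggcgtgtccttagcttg
Ccnb2, chr9:70421505-70421654, minus strand: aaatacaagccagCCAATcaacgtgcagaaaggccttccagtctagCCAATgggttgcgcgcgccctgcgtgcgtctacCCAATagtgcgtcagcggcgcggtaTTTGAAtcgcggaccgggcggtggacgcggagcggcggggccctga
Cdk1, chr10:69352863-69353012, minus strand: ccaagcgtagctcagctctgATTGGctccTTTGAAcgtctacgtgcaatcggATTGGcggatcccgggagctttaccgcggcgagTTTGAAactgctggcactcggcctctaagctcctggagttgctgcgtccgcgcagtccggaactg
Ccnf, chr17:24251360-24251509, minus strand: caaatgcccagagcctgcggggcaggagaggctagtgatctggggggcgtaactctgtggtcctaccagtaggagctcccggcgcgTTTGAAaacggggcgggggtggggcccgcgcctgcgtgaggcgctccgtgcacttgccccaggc
Bub1, chr2:127831810-127831959, minus strand: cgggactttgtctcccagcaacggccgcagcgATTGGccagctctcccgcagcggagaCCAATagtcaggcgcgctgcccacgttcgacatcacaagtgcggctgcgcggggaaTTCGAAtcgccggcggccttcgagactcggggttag
Cdc25b, chr2:131186848-131186997, plus strand: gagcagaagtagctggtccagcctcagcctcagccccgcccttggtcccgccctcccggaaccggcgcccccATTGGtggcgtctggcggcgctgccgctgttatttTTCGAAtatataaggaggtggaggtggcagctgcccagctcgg
Psrc1, chr3:108383704-108383853, plus strand: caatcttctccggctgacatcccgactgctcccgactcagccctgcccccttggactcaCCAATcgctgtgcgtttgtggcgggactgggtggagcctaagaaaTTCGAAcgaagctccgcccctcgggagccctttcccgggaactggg

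Counting from the first transcribed base as 1 and upstream bases as negative, TTTGAA begins in these stretches at 31 in Plk1, -18 in Cdc20, 5 in Ccnb2, -71 and -15 in Cdk1 and -14 in Ccnf. TTCGAA begins at 15 in Bub1, 8 in Cdc25b and 5 in Psrc1. These 3 are the genes among the 43 that held TTCGAA without TTTGAA. Bub1b and Top2a held both. In a further window of Psrc1, with a later start, TTCGAA begins at -30.

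In control macrophages the most abundant of the 50 mRNAs per length was Ube2c, the ubiquitin-conjugating enzyme of the APC/C, with a mean of 231 FPKM. Birc5 (survivin, 129 FPKM) and Pttg1 (securin, 119 FPKM) followed. The lowest was Kif20b, a kinesin of late mitosis, at 3.18 FPKM, and the median over the 50 was 25.3 FPKM. The authors' mean normalized count per gene ran from 85.3 (Aurka) to 3263 (Mki67). Read counts per library were not analysed here.

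The labelled cell type fitted its markers. Of the 9 macrophage markers, 8 were in the table, each above 1 FPKM on average, and their summed level ran from 11252 to 13869 FPKM over the 9 libraries. Summed hepatocyte markers were at most 16.2 FPKM, T, B and NK cell markers at most 1.18 FPKM and erythroid markers at most 0.385 FPKM, and Hnf4a was listed at 0. The summed neutrophil markers, which include S100a8, S100a9, Mmp8 and Mmp9, did move with treatment, from 9.12, 31.4 and 9.29 FPKM in control to 248, 31.1 and 254 after LPS and to 851, 779 and 917 after LPS+MIC-1. Their part in the results was not tested.

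One library went against its label over the whole table. Over the 9905 tested genes, LPS library 2 differed from control library 2 by 0.298 (root mean square of log2(FPKM + 0.5) differences), from control libraries 1 and 3 by 0.407 and 0.415, and from LPS libraries 1 and 3 by 1.21, while the control libraries differed among themselves by 0.279 to 0.391. The study states 2 LPS replicates for these cultures, without saying which library was left out. Results are therefore given over 8 libraries, without the library labelled LPS 2, and over all 9. LPS libraries 1 and 3 differed by 0.402, and their FPKM values, scaled between libraries by the authors' size factors, summed to 1.14e+06 and 1.13e+06, against 557136 to 598270 in the controls and LPS library 2 and 647770 to 652486 with LPS+MIC-1.

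**Figure D1:**
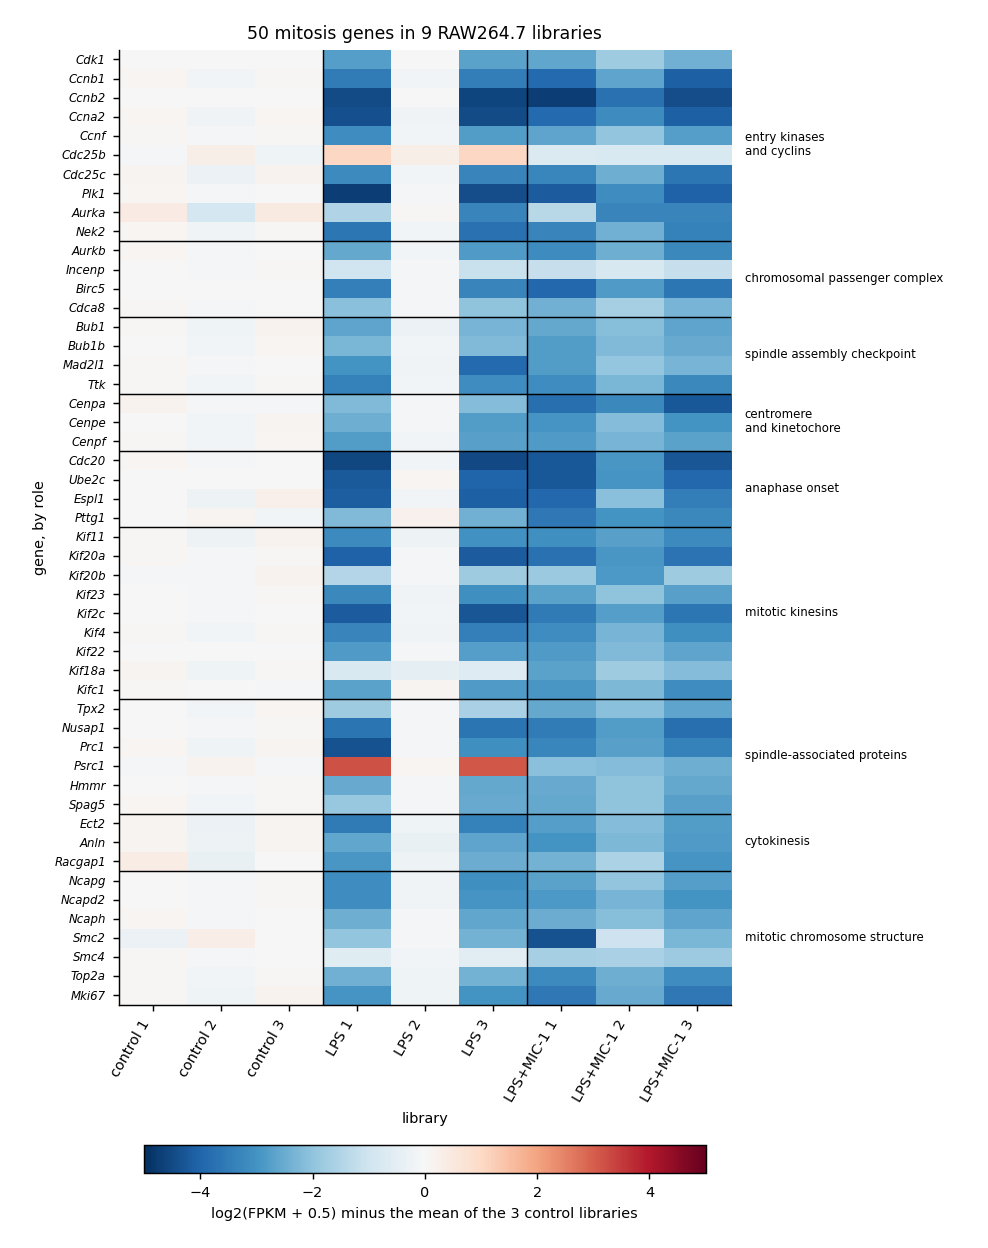
Each row is 1 of the 50 mitosis genes, ordered by role, each column 1 of the 9 RAW264.7 libraries, and the colour is log2(FPKM + 0.5) minus the mean of the 3 control libraries. LPS library 2 has the colours of the controls, LPS libraries 1 and 3 and the LPS+MIC-1 libraries are blue (lower) for nearly all genes, and Psrc1 and Cdc25b are red (higher) in LPS libraries 1 and 3.

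With LPS, the mitosis genes were lower nearly throughout. Over the 8 libraries 44 of the 50 fell and 2 rose (adjusted p below 0.01 and absolute Log2FC above 1, Benjamini-Hochberg over all tested genes). Of all tested genes 17.9% fell and 16.3% rose. The median Log2FC of the 50 was -2.78, beside -0.02 for all genes. In 23 of the 50 genes the mean of LPS libraries 1 and 3 was below 10% of the control mean, in 23 it was at 10 to 50%, in Kif18a and Smc4 between 50 and 100%, and in Cdc25b and Psrc1 above it. The RNA was taken from whole cultures, in which fewer cells in mitosis and less RNA per cell cannot be told apart. The 4 genes that did not pass were Aurka, Smc2, Kif18a and Smc4.

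Among the kinases and cyclins of mitotic entry, 8 of 10 fell, 1 rose and 1 did not pass. Plk1, the polo-like kinase that activates Cdc25 and matures the centrosomes, had 60.5, 53.3 and 57.9 FPKM in the control libraries, 1.72, 54.2 and 2.14 after LPS and 2.77, 6.13 and 2.98 with LPS+MIC-1. LPS libraries 1 and 3 lay far below every control and library 2 within them, and the Log2FC over the 8 libraries was -4.57 ± 0.28 (SE; adjusted p = 5.47e-06), the largest fall among the 50 genes. Ccnb2, one of the 2 B-type cyclins that activate Cdk1, was at 71.6, 72.7 and 69.6 FPKM in control, 2.77, 70.0 and 2.45 in LPS and 2.28, 4.90 and 2.80 in LPS+MIC-1 libraries (Log2FC -4.53 ± 0.24 for LPS, adjusted p = 3.19e-06). Its paralog Ccnb1 was at 72.1, 61.3 and 70.0 FPKM in control, 5.49, 62.2 and 5.65 in LPS and 4.14, 10.6 and 3.56 in LPS+MIC-1 libraries (Log2FC -3.49 ± 0.38, adjusted p = 8.23e-05). Both B cyclins were thus below 10% of control in LPS libraries 1 and 3. Ccna2, the cyclin of S phase and early mitosis, had 71.6, 60.04 and 72.4 FPKM in control, 2.74, 60.4 and 2.59 in LPS and 4.05, 7.19 and 3.51 in LPS+MIC-1 libraries (Log2FC -4.43 ± 0.25, adjusted p = 3.99e-06). Cdk1 itself kept more of its mRNA. Its FPKM values were 51.4, 51.1 and 51.8 in control, 7.24, 50.5 and 7.62 in LPS and 8.19, 14.5 and 9.25 in LPS+MIC-1 libraries, and LPS libraries 1 and 3 averaged 14.4% of control (Log2FC -2.71 ± 0.20, adjusted p = 1.25e-05).

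Nek2, a kinase that separates the centrosomes, fell to 5.70% of control (Log2FC -3.68), Cdc25c, a phosphatase that activates Cdk1, to 6.67% (-3.24), and Ccnf, the substrate receptor of an SCF ubiquitin ligase, to 10.5% (-2.96). Aurka, the kinase of the centrosomes, did not pass. It was scarce and uneven, with 6.08, 2.21 and 6.26 FPKM in control libraries, 1.23, 4.68 and 0 after LPS and 1.40, 0 and 0 with LPS+MIC-1 (Log2FC -2.41 ± 0.77, adjusted p = 0.0216). It was listed at 0 in 3 libraries.

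Cdc25b, the phosphatase that starts Cdk1 activation at the centrosome, moved the other way. It had 21.7, 29.3 and 20.5 FPKM in the control libraries, 49.0, 28.6 and 48.3 after LPS and 14.1, 13.9 and 13.8 with LPS+MIC-1. LPS libraries 1 and 3 were above all controls and all LPS+MIC-1 libraries below them (Log2FC for LPS 1.03 ± 0.14, adjusted p = 0.000276). This rise lay just past the fold threshold and depended on the scaling: with FPKM values brought to the same sum across libraries, which moved the median of all genes to -0.93, it was 0.05 and did not pass. It also did not pass when libraries 1 and 3 of each treatment were averaged (Log2FC 0.95, adjusted p = 0.0180).

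The chromosomal passenger complex corrects faulty attachments at the centromere and later acts at the midzone, and all 4 of its members fell. Aurkb, its kinase, had 52.1, 45.4 and 50.3 FPKM in control libraries, 7.96, 45.3 and 6.55 after LPS and 5.18, 8.54 and 4.87 with LPS+MIC-1, so LPS libraries 1 and 3 did not overlap the controls (Log2FC -2.69 ± 0.22, adjusted p = 1.78e-05). Birc5, the subunit that finds the centromere, fell to 9.31% of control (Log2FC -3.37) and Cdca8 (borealin) to 23.8% (-2.04). Incenp, the scaffold that holds the complex together, fell least, to 47.8% (Log2FC -1.05 ± 0.12, adjusted p = 0.000104), from 54.4, 50.4 and 55.8 FPKM to 26.8, 50.8 and 24.3. Percentages of control within this complex ran from below 10% to nearly 50% of control.

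All 4 genes of the spindle assembly checkpoint fell. Ttk (Mps1), the kinase that recruits the other checkpoint proteins to unattached kinetochores, fell to 7.87% of control (Log2FC -3.23). Mad2l1, which is handed to Cdc20 to block it, had 13.9, 12.7 and 13.0 FPKM in control libraries, 1.23, 11.5 and 0.422 after LPS and 1.47, 3.03 and 2.22 with LPS+MIC-1 (Log2FC for LPS -3.43 ± 0.30, adjusted p = 2.82e-05). Bub1 and Bub1b (BubR1), the paired scaffolds of the checkpoint, fell less, to 16.5% and 20.3% of control (Log2FC -2.47 and -2.24). At the centromere, Cenpf and Cenpe, which link kinetochores to microtubules, fell to 5.41% and 12.3%, and Cenpa, the histone H3 variant that marks the centromere, to 20.9%. Cenpa was at 49.2, 42.1 and 40.9 FPKM in control libraries, 9.11, 40.7 and 9.35 after LPS and 2.78, 4.29 and 1.88 with LPS+MIC-1 (Log2FC for LPS -2.19 ± 0.25, adjusted p = 0.000116).

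The 4 genes of anaphase onset fell. Cdc20, the activator of the APC/C that the checkpoint restrains, had 73.0, 65.5 and 68.4 FPKM in control libraries, 2.43, 62.7 and 2.53 after LPS and 3.18, 8.83 and 3.10 with LPS+MIC-1 (Log2FC for LPS -4.54 ± 0.38, adjusted p = 1.95e-05). Ube2c went from 232, 232 and 228 FPKM in control to 12.2, 245 and 13.8 in LPS and 11.9, 29.2 and 14.7 in LPS+MIC-1 libraries (Log2FC -4.10 ± 0.32). Both were below 10% of control in LPS libraries 1 and 3. Espl1 (separase), the protease that cuts cohesin, had 8.12, 6.78 and 9.98 FPKM in control libraries, 0, 7.51 and 0.0104 after LPS and 0.0768, 1.56 and 0.294 with LPS+MIC-1 (Log2FC for LPS -4.11 ± 0.48, adjusted p = 0.000124), and it was listed at 0 in LPS library 1. Pttg1, the securin that keeps separase off, fell less, to 19.8% of control (Log2FC -2.31).

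Of the 9 mitotic kinesins 8 fell. Kif2c (MCAK), which takes apart microtubule ends at the kinetochore, had 27.1, 26.0 and 27.5 FPKM in control libraries, 1.05, 24.3 and 0.909 after LPS and 1.86, 3.58 and 1.71 with LPS+MIC-1, and its Log2FC for LPS of -4.21 ± 0.24 (adjusted p = 4.22e-06) was the largest among the kinesins. Kif20a (Log2FC -4.10) and Kif23 (-3.16), both of the central spindle, Kif11, which pushes the poles apart (-3.10), and Kif4, of the chromosome arms (-3.35), fell below 10% of control. Kif22 (-2.79), Kifc1 (-2.74) and Kif20b (-1.63) kept between 12.7% and 21.6%. Kif18a, which damps chromosome oscillations, did not pass. It had 5.66, 4.26 and 5.35 FPKM in control libraries, 2.75, 3.48 and 3.03 after LPS and 0.374, 1.14 and 0.750 with LPS+MIC-1, so that even LPS library 2 was below all controls (Log2FC for LPS -0.71 ± 0.25, adjusted p = 0.0337).

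Of the 6 spindle-associated proteins 5 fell, from Prc1, the bundler of the central spindle (Log2FC -3.72), and Nusap1 (-3.64) over Hmmr (-2.53) and Spag5 (-2.22) to Tpx2, the activator of Aurora A (-1.72). Psrc1 (DDA3), which binds microtubules and loads depolymerising kinesins on the spindle, was the exception and rose. It had 20.1, 23.9 and 20.1 FPKM in the control libraries, 196, 22.9 and 189 after LPS and 4.65, 4.34 and 3.54 with LPS+MIC-1. LPS libraries 1 and 3 were the highest and the LPS+MIC-1 libraries the lowest, with no overlap of either with the controls, and LPS library 2 lay at control level. The mean of LPS libraries 1 and 3 was 9.03 times that of the controls (Log2FC 3.15 ± 0.12, adjusted p = 1.18e-06), and with FPKM values brought to the same sum the rise still passed, at 2.17.

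The 3 cytokinesis genes fell: Ect2, which activates RhoA at the cleavage furrow, to 5.66% of control (Log2FC -3.46), its partner Racgap1 to 9.10% (-2.69) and the furrow scaffold Anln to 13.7% (-2.61). Of the 7 genes of mitotic chromosome structure 5 fell. Mki67, which coats mitotic chromosomes and is the common marker of dividing cells, had 36.4, 29.3 and 38.6 FPKM in control libraries, 4.003, 29.7 and 3.92 after LPS and 2.40, 5.55 and 2.41 with LPS+MIC-1 (Log2FC for LPS -2.97 ± 0.31, adjusted p = 6.49e-05). Top2a, the topoisomerase that untangles sister chromatids, was at 59.1, 51.9 and 59.9 FPKM in control, 10.3, 49.0 and 10.6 in LPS and 5.87, 10.1 and 6.14 in LPS+MIC-1 libraries (Log2FC -2.39 ± 0.21, adjusted p = 2.48e-05). The 3 subunits particular to condensin I fell together, Ncapg by a Log2FC of -3.08, Ncapd2 of -3.03 and Ncaph of -2.52. The SMC pair that both condensins share did not pass. Smc4 had 36.1, 32.6 and 35.1 FPKM in control libraries, 22.5, 31.6 and 23.1 after LPS and 10.5, 10.8 and 9.43 with LPS+MIC-1, and its Log2FC for LPS of -0.59 ± 0.08 missed the fold threshold, not the p-value (0.000296). Smc2 was uneven, with 7.84, 12.4 and 9.67 FPKM in control, 2.15, 9.12 and 1.48 in LPS and 0, 4.49 and 1.59 in LPS+MIC-1 libraries (Log2FC -2.17 ± 0.81, adjusted p = 0.0403).

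**Figure D2:**
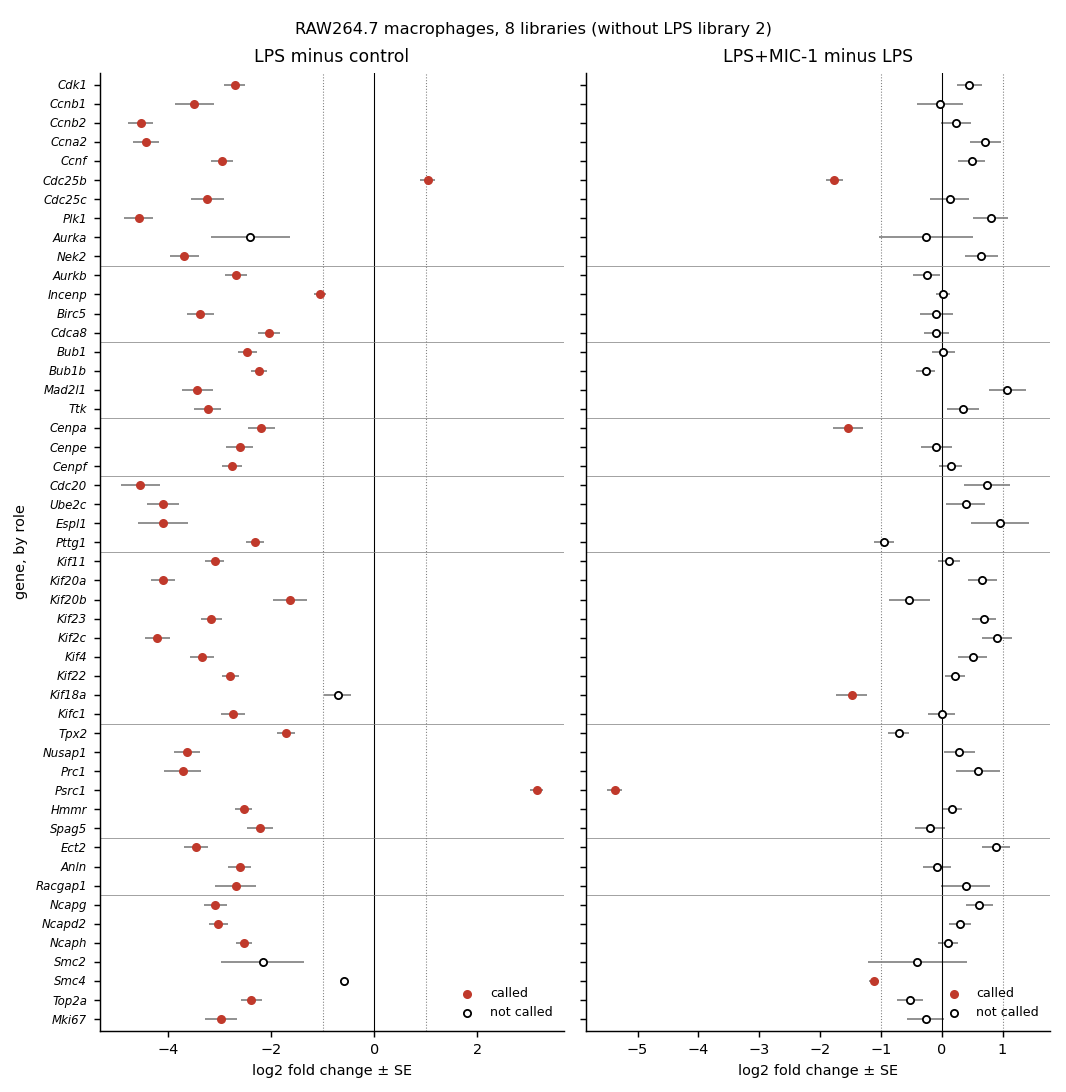
Log2FC with SE (bars) of the 50 genes over 8 RAW264.7 libraries, LPS minus control on the left and LPS+MIC-1 minus LPS on the right; filled points passed the threshold, open points did not, and dotted lines mark a Log2FC of 1 and -1. On the left 44 points lie past the threshold below 0 and Psrc1 and Cdc25b above it, while on the right most genes lie near 0 and 5 passed, all lower.

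Over all 9 libraries none of the 50 genes passed for LPS against control with limma (46 were lower and 2 higher at an unadjusted p below 0.05, beside 25.6% and 24.1% of all genes), and none of the 9905 genes did (0%). Without LPS library 2 the count was 46. The median Log2FC of the 50 over 9 libraries was -1.89. The library labelled LPS 2 held 68.4% (Kif18a) to 120% (Cdc25b) of the control mean, within the control range for 24 genes, below it for 23 and above it for Ube2c, Pttg1 and Kifc1. Relative to the mean of the controls, the median of the 50 genes was -2.87 and -2.82 (log2) in LPS libraries 1 and 3 and -0.12 in library 2.

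**Figure D3:**
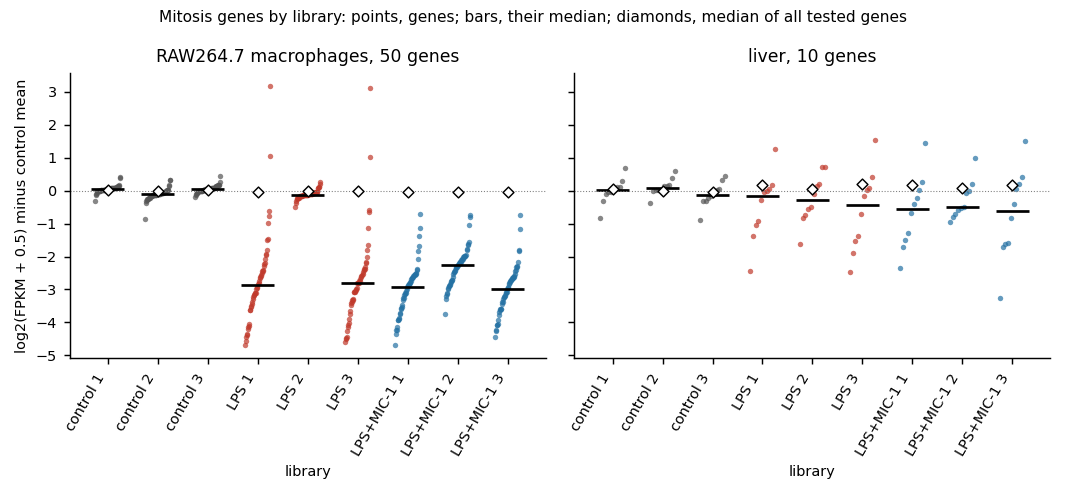
Points are mitosis genes (50 in macrophages, 10 in liver) in each library, as log2(FPKM + 0.5) minus the control mean, black bars their median and open diamonds the median of all tested genes. In macrophages the bars lie between -2.98 and -2.27 in LPS libraries 1 and 3 and the LPS+MIC-1 libraries and near 0 in LPS library 2, while in liver they lie between 0.08 and -0.61. The diamonds stay near 0 in macrophages and lie between -0.04 and 0.21 in liver, highest in LPS library 3.

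In the LPS+MIC-1 cultures the mitosis genes were low in all 3 libraries. For each of the 50 genes every LPS+MIC-1 library was below every control library, which held for 34.9% of all genes. The group mean was below 10% of control for 17 genes, at 10 to 20% for 27 and at 20% or above for Cdk1, Cdc25b, Incenp, Cdca8, Smc2 and Smc4. The highest was Cdc25b, at 58.4%, and the lowest Ccnb2, at 4.67%. With the spread estimated over 8 libraries 47 of the 50 genes fell (8.2% of all genes did), with a median Log2FC of -2.69, and Aurka, Smc2 and Cdc25b (Log2FC -0.74 ± 0.13, adjusted p = 0.00152) did not pass. With all 9 libraries in the fit, where LPS library 2 enters the shared estimate of the spread, 6 passed (2.32% of all genes fell): Cenpa, Kif18a, Pttg1, Smc4, Top2a and Tpx2. With the control and LPS+MIC-1 libraries alone 48 did, beside 805 of all 9905 genes that fell. Leaving out any single library but LPS library 2 left between 1 and 5, beside 54 to 209 of all genes that fell. Among the LPS+MIC-1 libraries, library 2 was the highest for 46 of the 50 genes and differed from the control mean by a median of -2.27, against -2.92 and -2.98 in libraries 1 and 3. This comparison shares its control libraries with that of LPS against control.

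Whether MIC-1 moved the mitosis genes beyond LPS is the comparison of LPS+MIC-1 with LPS, and here few genes passed. Over the 8 libraries 5 of the 50 fell (12% of all genes did), 0 rose (11.3% of all genes) and 45 did not pass; at an unadjusted p below 0.05, 17 did, 8 of them lower (35.6% of all genes) and 9 higher (35.6%). The median Log2FC was 0.13, beside 0.01 for all genes, and its sign rested on LPS+MIC-1 library 2, without which it was -0.03, against 0.23 without library 1 or 3. With a pseudocount of 0.1, or without LPS+MIC-1 library 3, 2 genes rose, beside 1289 and 1097 of all 9905 genes. The groups did not overlap for 14 genes that were higher and 9 that were lower with LPS+MIC-1, against 40.3% and 39.9% of all genes.

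The 5 genes that fell were Psrc1 (Log2FC -5.38 ± 0.12, adjusted p = 4.54e-07), Cdc25b (-1.77 ± 0.14, 2.54e-05), Cenpa (-1.54 ± 0.25, 0.00106), Kif18a (-1.48 ± 0.25, 0.00134) and Smc4 (-1.12 ± 0.08, 1.72e-05). Their levels after LPS differed. Psrc1 and Cdc25b had risen with LPS and were below control with LPS+MIC-1, Psrc1 at 19.6% of the control mean. Kif18a and Smc4 were the genes with the most mRNA left among those lower with LPS, at 56.8% and 65.8% of control, and stood at 14.8% and 29.6% with LPS+MIC-1. Cenpa had fallen to 20.9% and stood at 6.77%. With libraries 1 and 3 of each treatment averaged, Psrc1, Cdc25b and Smc4 passed and Cenpa and Kif18a did not. Over all 9 libraries 4 of these 5 passed, Cenpa not among them (1.81% of all genes fell). Leaving out any single library but LPS library 2 left between 0 and 2 of the 50, beside 47 to 119 of all 9905 genes that fell.

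**Figure D4:**
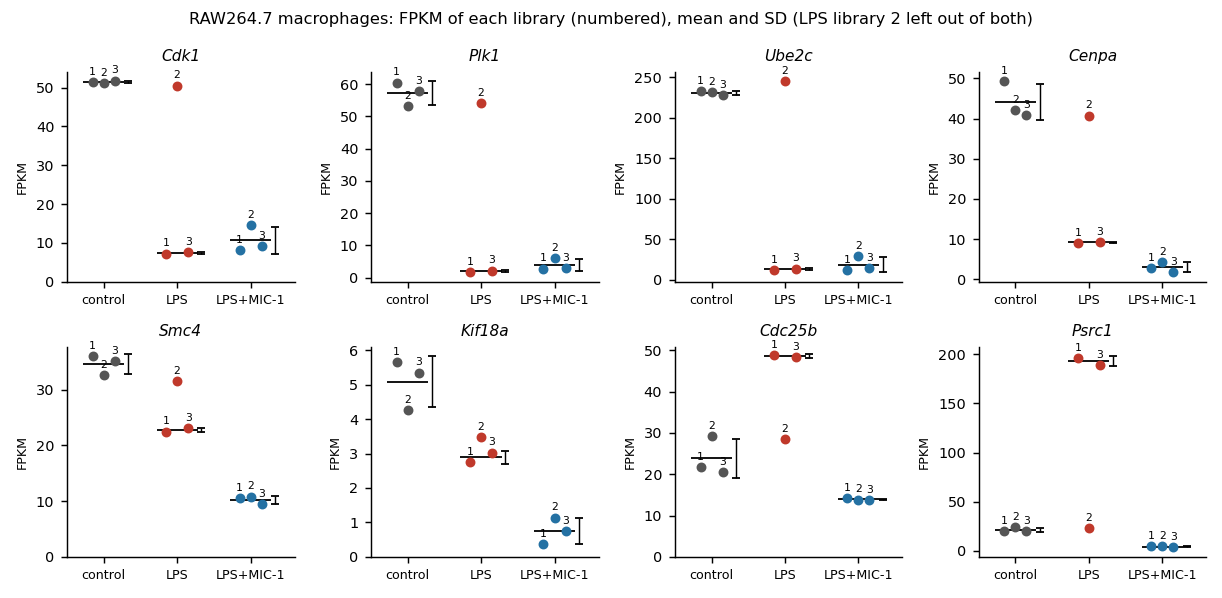
FPKM in each RAW264.7 library (points, numbered by library), with the mean and SD of the group, for LPS over libraries 1 and 3. Cdk1, Plk1 and Ube2c are low in LPS libraries 1 and 3 and with LPS+MIC-1, Cenpa, Smc4 and Kif18a are lower with LPS+MIC-1 than in LPS libraries 1 and 3, and Cdc25b and Psrc1 are highest in LPS libraries 1 and 3 and lowest with LPS+MIC-1.

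The 5 largest fitted rises with MIC-1 did not pass. They were Mad2l1 (1.08, 95% interval 0.37 to 1.79), Espl1 (0.96, -0.16 to 2.08), Kif2c (0.91, 0.34 to 1.47), Ect2 (0.89, 0.36 to 1.42) and Plk1 (0.80, 0.14 to 1.46). Ect2 had 14.97, 10.8 and 15.01 FPKM in control libraries, 0.713, 11.5 and 0.827 after LPS and 1.58, 2.62 and 1.495 with LPS+MIC-1. These genes had lost most of their mRNA with LPS, and each was still below 20% of control with LPS+MIC-1. For genes near 0 in the middle of the list the interval bounds what a difference could have been. That of Kifc1, a kinesin that focuses the poles, was -0.53 to 0.52 and that of Incenp -0.26 to 0.30. Another scaling moved these genes and all others alike. With FPKM values brought to the same sum the median of all genes shifted to 0.74 and that of the 50 to 0.77, and 14 passed, Psrc1 lower (-4.59) and 13 higher, Mad2l1 (1.55), Kif2c (1.43), Plk1 (1.43), Cdc20 (1.40) and Ccna2 (1.38) the most, beside 3587 of all 9905 genes higher and 269 lower. Relative to the median of all genes, the median of the 50 was 0.12 as deposited and 0.03 rescaled.

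Set beside their promoter letters, the 31 genes with TTTGAA had a median Log2FC with LPS of -2.96 (29 fell, 0 rose) and the 9 with neither TTTGAA nor TTCGAA one of -3.37 (8 fell, 0 rose). The 3 with TTCGAA and no TTTGAA held both genes that rose, Psrc1 and Cdc25b, and Bub1, which fell. The 7 genes without a window had a median of -2.69. Differences between these groups were not tested, and a group of 3 genes is too small to tie the letters to a direction.

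Other genes of mitosis, in lists that do not share members with the 50, were tested in the same fit, and with LPS over the 8 libraries 34 of 73 fell and 6 rose, beside 17.9% and 16.3% of all genes. These lists differ in function, and their call rates were not tested against those of the 50. In the outer kinetochore and checkpoint, 16 of 22 fell and 1 rose, with the largest changes in Ndc80 (-4.01 ± 0.25), Nuf2 (-3.48 ± 0.52) and Cenph (18.9, 17.8 and 18.5 FPKM in control and 2.05, 17.6 and 1.68 in LPS libraries). Of cohesin, its regulators and condensin II, 10 of 16 fell, led by Esco2 (-3.39 ± 0.32), Sgol1 (-2.83 ± 0.24) and Cdca5 (-2.80 ± 0.20). Of 15 genes of the APC/C and its regulators, 2 fell, near the 17.9% of all genes, the subunit Anapc5 (-1.40 ± 0.08) and the inhibitor Fbxo5 (-4.01 ± 0.20). The other 13 did not pass. Of the DREAM, MuvB and related transcription factors 4 of 10 fell and 0 rose. The largest changes were in Mybl2 (-3.34 ± 0.28) and E2f8 (-3.11 ± 0.51), whose own mRNAs are made in dividing cells, and in Rbl1 (-2.01 ± 0.16), the p107 pocket protein of DREAM. Genes that hold back Cdk1 and its relatives were the only one of these lists with more rises than falls, 5 against 2 of 10. Gadd45b had 21.1, 29.9 and 21.5 FPKM in control libraries, 946, 30.2 and 948 after LPS and 45.1, 34.5 and 41.8 with LPS+MIC-1, and Gadd45g 24.4, 32.4 and 23.5, then 178, 32.99 and 176, then 6.42, 8.07 and 6.48. Both encode stress-induced proteins that interfere with Cdk1, and both were highest in LPS libraries 1 and 3. With LPS+MIC-1 Gadd45b was still above every control library and Gadd45g was below them all. Cdkn3, whose change was the largest in this list after that of Gadd45b, fell (-2.88 ± 0.36). Of the genes of DNA replication and G1/S, 39 of 43 fell and 1 rose, the largest falls in Mcm10 (-4.09 ± 0.32), Cdc6 (-3.88 ± 0.26) and Mcm7 (-3.86 ± 0.20).

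Between LPS+MIC-1 and LPS, 4 of these 73 other mitosis genes rose and 8 fell. Of all genes 11.3% rose and 12% fell, so that the 73 genes, pooled, were not above the background. The counts differed between lists. Of the 10 genes that hold back Cdk1 and its relatives 5 fell and 1 rose. Each of the other mitosis lists held at most 2 falls and 2 rises. Of the 43 replication genes 7 rose and 1 fell, with a median Log2FC of 0.39, 36 fitted higher and 7 lower. Groups did not overlap for 24 of the 43 that were higher and 1 that was lower, against 40.3% and 39.9% of all genes. The rates of single lists were not tested against that of all genes. Fbxo5, the APC/C inhibitor, rose (1.61 ± 0.20), from 0.522, 16.3 and 0.612 FPKM in the LPS libraries, of which library 2 stood with the controls, to 2.59, 3.83 and 2.08. Mis12, a kinetochore scaffold, had 12.9, 12.8 and 13.5 FPKM in control libraries, 3.51, 12.3 and 2.93 after LPS and 10.8, 12.7 and 10.9 with LPS+MIC-1 (1.68 ± 0.10). Gadd45g (-4.57 ± 0.15) and Gadd45b (-4.54 ± 0.17) fell. Gadd45a of the same family rose with LPS+MIC-1, against LPS (1.12) and against control (2.92 ± 0.19). It had 8.201, 13.9 and 8.55 FPKM in control, 34.5, 13.1 and 37.4 in LPS and 84.7, 69.9 and 81.4 in LPS+MIC-1 libraries.

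In liver most of the mitosis genes were below 1 FPKM. The 40 that were not tested had a median of 0.308 FPKM over the libraries, with Nek2 the highest at 0.900, and Aurka and Kif20b were listed at 0 in all 9 libraries. Ncapd2 was the lowest of the tested genes, at 1.07. The liver libraries held the defining markers of hepatocytes, whose summed FPKM ran from 43540 to 83889. The liver values were scaled apart from those of the macrophages, so levels are not compared between the tables. LPS libraries 1 and 3 were close over all genes (root mean square 0.451) and so were LPS+MIC-1 libraries 1 and 3 (0.467). In both groups library 2 stood further off. LPS library 2 differed from LPS libraries 1 and 3 by 1.04 to 1.05, from LPS+MIC-1 library 2 by 0.737 and from the controls by 1.08 to 1.22. LPS+MIC-1 library 2 differed from LPS+MIC-1 libraries 1 and 3 by 0.825 and 0.848. The control libraries differed among themselves by 0.844 to 1.09, so distances of this size also occurred within the controls.

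With LPS, 3 of the 10 tested genes fell in liver and 1 rose (adjusted p below 0.05 and absolute Log2FC above 1), where 11.2% of all genes fell and 13.4% rose. Ube2c had 10.2, 10.6 and 10.6 FPKM in control livers, 4.86, 5.70 and 2.47 after LPS and 4.04, 5.85 and 2.84 with LPS+MIC-1. Both treated groups lay below all controls (Log2FC for LPS -1.24 ± 0.32, adjusted p = 0.0195). Birc5 went from 8.52, 8.89 and 6.16 FPKM to 2.66, 4.50 and 2.35 after LPS and 2.02, 3.79 and 2.25 after LPS+MIC-1, likewise without overlap with the controls (Log2FC for LPS -1.22 ± 0.29, adjusted p = 0.0162). Cenpa had 2.22, 5.80 and 6.10 FPKM in control livers, 0.398, 1.08 and 0.369 after LPS and 0.459, 2.87 and 0 with LPS+MIC-1 (Log2FC for LPS -2.17 ± 0.68, adjusted p = 0.0377). It rested on few reads, a mean normalized count of 28.6, and its LPS+MIC-1 library 2 reached into the control range. Smc4 was at 9.55, 8.95 and 7.85 FPKM in control, 4.37, 5.82 and 3.03 in LPS and 2.75, 5.13 and 2.5 in LPS+MIC-1 livers. Its Log2FC of -0.96 ± 0.30 for LPS missed the fold threshold (adjusted p = 0.0368), and that for LPS+MIC-1 against control passed (-1.29 ± 0.30, 0.0122).

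Ccnf was the gene that rose. It had 5.16, 5.67 and 5.78 FPKM in control livers, 14.1, 9.44 and 16.9 after LPS and 15.9, 11.4 and 16.5 with LPS+MIC-1, all 6 treated livers above all controls (Log2FC 1.18 ± 0.24 for LPS, adjusted p = 0.00924, and 1.31 ± 0.24 for LPS+MIC-1, 0.00573). With FPKM values brought to the same sum it was 0.84 and 0.69 and did not pass. In macrophages, with the FPKM values 18.7, 16.5 and 18.4 in control, 1.64, 16.4 and 2.12 in LPS and 2.46, 4.13 and 2.22 in LPS+MIC-1 libraries, it fell.

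The other 5 tested genes did not pass in liver against either treatment. Pttg1 was the most abundant per length, at 76.8, 36.1 and 38.5 FPKM in control livers, 48.8, 52.0 and 48.0 after LPS and 48.2, 46.8 and 49.7 with LPS+MIC-1, where 1 control library stood above all others. Hmmr, which binds microtubules at the spindle poles, had 1.85, 2.20 and 1.74 FPKM in control, 1.5005, 1.77 and 0.979 in LPS and 1.01, 1.12 and 0.875 in LPS+MIC-1 livers (Log2FC for LPS+MIC-1 against control -0.69 ± 0.24, adjusted p = 0.0515). Ncapd2 had 1.41, 1.49 and 1.06 FPKM in control livers, 1.28, 0.792 and 1.12 after LPS and 0.855, 0.795 and 0.869 with LPS+MIC-1, the last group below all controls. Cdca8 and Incenp, of the passenger complex, showed no order between groups. Cdca8 was at 1.14, 1.55 and 0.233 FPKM in control, 0.856, 1.71 and 1.30 in LPS and 1.13, 0.787 and 1.29 in LPS+MIC-1 livers, and Incenp at 0.703, 0.975 and 1.35, then 1.18, 1.22 and 1.06, then 0.769, 1.22 and 1.19.

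**Figure D5:**
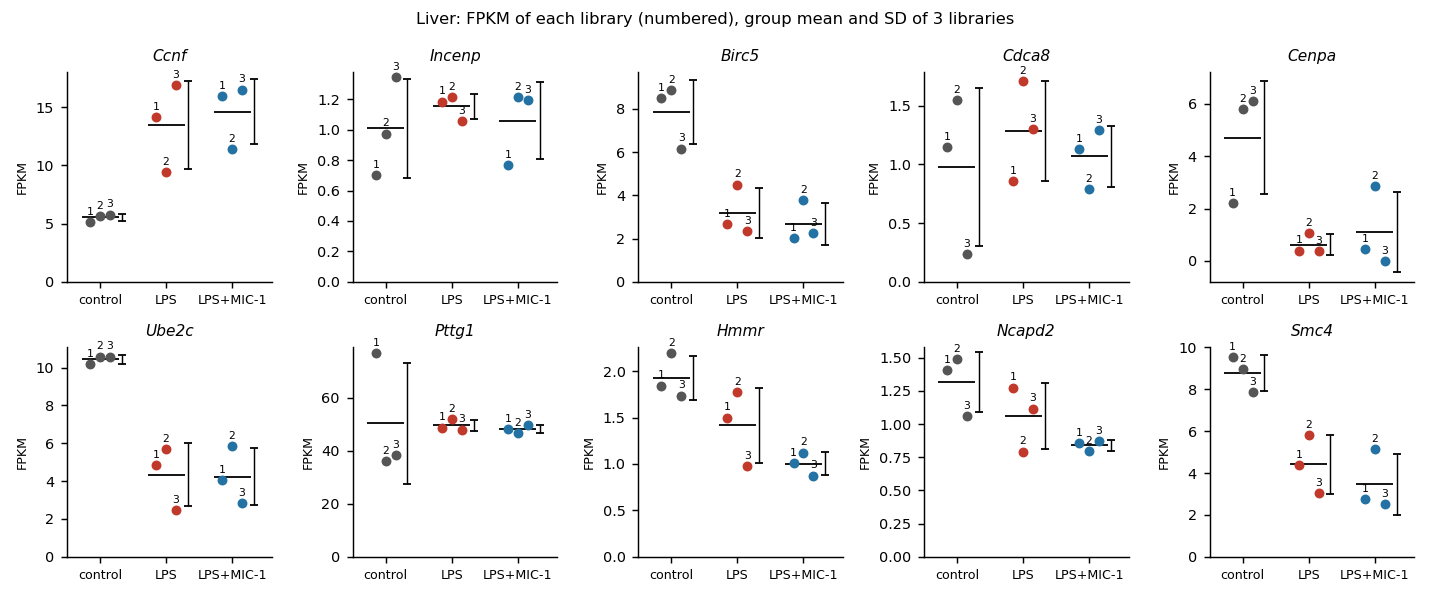
FPKM in each liver library (points, numbered by library) of the 10 mitosis genes tested, with the mean and SD of 3 libraries per group. Ccnf is higher and Birc5, Ube2c and Smc4 are lower in both treated groups than in the controls without overlap, and the LPS and LPS+MIC-1 groups overlap for all 10 genes.

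In LPS+MIC-1 livers 4 of the 10 genes fell against control (Birc5, Cenpa, Ube2c and Smc4) and Ccnf rose, with 11.5% of all genes lower and 13.8% higher. Between LPS+MIC-1 and LPS none of the 10 passed with limma, 0 had an unadjusted p below 0.05, and none of the 10147 genes passed (0%; 1.99% were higher and 1.6% lower at an unadjusted p below 0.05). Without LPS library 2, which stood apart, 35 of all genes passed, 20 higher and 15 lower, and still 0 of the 10. Without LPS+MIC-1 library 2, which also stood off from its group, 0 of all genes and 0 of the 10 passed. Over all 9 libraries the Log2FC values ran from -0.33 (Hmmr and Smc4 alike at 2 decimals) to 0.13, with 95% intervals of -0.74 to 0.71 for Ube2c and -0.87 to 0.47 for Birc5.

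The genes that fell in liver did so depending on single libraries, while Ccnf passed in both comparisons with any 1 library left out. For LPS against control 4 genes passed, against 1 without control library 2, 2 without control library 3, 2 without LPS library 1 and 1 without LPS library 3. Calls over all 10147 genes dropped in the same fits, from 2493 to 1690, 1655, 1472 and 1227 in that order. For LPS+MIC-1 against control 5 passed, against 3 without control library 2, control library 3, LPS+MIC-1 library 1 or LPS+MIC-1 library 3. Over all genes 2560 passed, against 1858, 1872, 1832 and 1749 in that order. With libraries 1 and 3 of LPS and of LPS+MIC-1 averaged and the controls left as they were, an alternative chosen after seeing the data, 0 and 1 (Ccnf) passed. Of all genes 628 and 1352 did. Markers of other liver cell types moved with treatment. The summed T, B and NK cell markers (12 of 12 in the table, 4 above 1 FPKM) ran from 17.3 to 21.2 FPKM in control livers, 4.65 to 9.01 with LPS and 5.45 to 8.42 with LPS+MIC-1, and the summed erythroid markers (6 of 9 in the table) from 1069 to 1847, from 746 to 1085 and from 719 to 999.5. Summed macrophage markers were at 37.3 to 56.7 FPKM in control livers, at 678, 168 and 654 in the LPS and at 164, 470 and 167 in the LPS+MIC-1 libraries, and summed neutrophil markers at 37.7 to 53.5, then 385, 356 and 454, then 194, 468 and 207. Summed Kupffer cell markers ran from 88.8 to 99.3 FPKM in control, 126 to 163 in LPS and 160 to 237 in LPS+MIC-1 livers, and summed endothelial markers from 67.7 to 70.1, from 43.7 to 64.4 and from 59.5 to 66.1. Their part in the results was not tested.

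Of 46 other mitosis genes tested in liver 4 rose and 4 fell with LPS, and of 27 replication genes 1 rose and 4 fell, beside 13.4% of all genes that rose and 11.2% that fell, so that the 46 were not above the background. The falls among the 27 replication genes were near that share too. Their median Log2FC was 0.05, with 14 fitted higher and 13 lower. Cdkn1a (p21), an inhibitor of cyclin-dependent kinases, had 6.85, 11.8 and 4.10 FPKM in control livers, 177, 85.5 and 160.2 after LPS and 113, 109 and 110.1 with LPS+MIC-1, and rose in both (4.18 ± 0.38 and 3.90 ± 0.38). The thymidylate synthesis genes Tyms (-2.03 ± 0.47) and Tk1 (-3.30 ± 0.92), the latter a thymidine kinase, fell with LPS, as did Spc24 (-3.42 ± 0.85) of the kinetochore. Spc24 was at 33.97, 3.449 and 3.797 FPKM in control livers and at 0, 0 and 1.41 after LPS. The size of its fall thus rested in part on control library 1 and on values listed at 0. Tk1 was uneven after LPS, at 0, 7.23 and 1.14 FPKM. For Spc24 and Tk1 every LPS library was below every control library.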

How the data were processed

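RNA from RAW264.7 cultures and mouse livers was sequenced, with 3 libraries per group and 18 in all. The authors pseudoaligned the reads with kallisto 0.45.0 to RefSeq transcripts of mm9, summed them to genes with tximport, and deposited FPKM values scaled by the size factors of DESeq2 1.20.0, separately for each table. The mean normalized count per gene (a coverage signal averaged over libraries) was taken as deposited from the authors' comparison tables, whose fold changes and p-values were not used. Depth per library was not analysed here, so no counting error is given.

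Here log2(FPKM + 0.5) of genes with mean FPKM above 1 was fitted with limma 3.58.1 (R 4.3.3, eBayes with a trend, 1 fit per table over its groups), and p-values were Benjamini-Hochberg adjusted over all tested genes. A gene passed at adjusted p below 0.01 (macrophages) or 0.05 (liver) and absolute Log2FC above 1. Fold changes are on this log2 scale, which understates those of low genes. The columns name the treatment and not the replicate, so libraries are numbered in table order. The tests were checked on simulated data. The genes and lists were chosen with earlier results of these data known. All 50 genes could be named; values per library were given for 9 core genes of the cell cycle, for the 5 largest rises and falls per comparison and for genes moving against the rest, and in other lists the 3 largest changes that passed. Promoter letters were searched with Python 3.11.15. The alternatives were another pseudocount, filter, scaling, trend, threshold or set of groups, each library left out, and libraries 1 and 3 averaged (in macrophages in all groups, in liver in the LPS and LPS+MIC-1 groups alone).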

Additional observations from a re-analysis of the deposited data

Results flagged for a closer look

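Ccnf, the F-box protein cyclin F, moved in opposite directions in the cultures and in liver, with every treated library on its own side of the controls in each table, though LPS library 2 of the macrophages (16.4 FPKM) lay just below the lowest control (16.5 FPKM). After LPS the Log2FC over all 9 libraries was -2.01 in macrophages and 1.18 in liver. After LPS+MIC-1 it was -2.46 in macrophages and 1.31 in liver. Neither macrophage fall passed in the fit of all 9 libraries, which includes LPS library 2, while both passed over the 8 libraries without it. The difference between the tables was not tested, since they were normalized separately, and the rise in liver did not pass when FPKM values were brought to the same sum.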

How the results depend on the processing

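No paired analysis was possible because the columns of the deposited tables carry no replicate number. Over 8 macrophage libraries the median Log2FC for LPS against control was -3.18 with a pseudocount of 0.1 and -3.68 with FPKM brought to the same sum, and that for LPS+MIC-1 against control -3.04 with a pseudocount of 0.1. For LPS+MIC-1 against LPS in the same 8, 14 genes passed (median 0.77) with the same sum, 8 with no minimum fold and 3 with libraries 1 and 3 averaged, against 5. Over 9 libraries, LPS+MIC-1 against LPS gave 4, against 2 with no filter, 2 with the same sum, 0 with only the groups compared, 0 with libraries averaged and 0 to 5 leaving out 1 library. LPS+MIC-1 against control gave 6, against 1 with the same sum, 48 with only the groups compared, 44 at adjusted p below 0.05, 0 with libraries averaged and 1 to 47 leaving out 1. LPS against control gave 0, and 0 to 46 leaving out 1, the highest value in each case without LPS library 2. In liver, LPS against control gave 4 of 10, against 1 at adjusted p below 0.01, 0 with libraries averaged and 1 to 5 leaving out 1. Over all genes 2493 passed, against 1227 to 3510 leaving out 1. With mean FPKM above 5 only 4 of the genes were still tested, and 2 of these passed. LPS+MIC-1 against control gave 5 of 10, against 2 at adjusted p below 0.01, 1 with libraries averaged and 3 to 5 leaving out 1. Over all genes 2560 passed, against 1749 to 3111 leaving out 1. With mean FPKM above 5, 3 of the 4 genes still tested passed. The median was -1.03 with the same sum. With no filter it was -0.018, over 48 genes of which most were below 1 FPKM. The causes were not tested. Of 117 single-gene calls 103 stood with the same sum, 111 with no filter and 117 with median-of-ratios scaling. With libraries 1 and 3 averaged 19 macrophage calls were lost and 89 kept, and 8 liver calls lost and 1 kept. Without liver control library 2, 5 of the liver calls were lost and 4 kept. No call changed sign under any alternative. The mean counts limit low genes, such as Aurka in macrophages and most of the genes in liver.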
